A study of Homo sapiens with 22 samples.

Results

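Control SH-SY5Y cells after 7 days of retinoic acid were compared with the same cells at day 0, in 5 of the 22 libraries of the series. SH-SY5Y is an established human neuroblastoma line of sympathetic, noradrenergic character, which takes on a neuron-like form under retinoic acid. The 5 libraries were chosen by their titles, and no measured value entered the choice. All of these cells carried a scrambled shRNA without a mammalian target, delivered by lentivirus and kept under puromycin selection. The 2 day 7 libraries (batches 1 and 2) came from cells given retinoic acid for 7 days, at a dose the labels state as 10 mM, in a 1:1 mixture of DMEM and F12 medium with 10% serum. The 3 day 0 libraries (batches 1, 2 and 3) came from undifferentiated cells in DMEM with 10% serum. No untreated day 7 library was analysed here, so the effects of retinoic acid, of 7 days in culture and of the new medium cannot be told apart here. The labels do not say whether the batches were separate cultures, so p-values reflect library-to-library spread alone, which may be technical. The study asked what CASC15 transcripts do in this line, and the control cells give the response that its knockdowns were set against.

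Retinoic acid enters the nucleus on the carrier CRABP2 and binds heterodimers of a retinoic acid receptor (RAR) and a retinoid X receptor (RXR), which sit on paired half-sites in DNA. Binding turns on genes that include the receptor gene RARB and the CYP26 enzymes, which oxidise retinoic acid and so limit its action. In neuroblastoma cells the hormone is known to slow division, to draw out neurites and to raise the growth factor receptors RET (for ligands of the GDNF family) and NTRK2 (TrkB, for BDNF).

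The element that RAR-RXR dimers prefer is the DR5, a direct repeat of a half-site with a spacer of 5 bases. The 250 bases before each start in the promoter table of RefSeq (GRCh38.p14) were searched for it on both strands. A DR5 lay in 26 of 35116 windows, 0.074%. Of 12 genes looked up among those described below, 9 had a window, and a DR5 lay in a window of CYP26A1 and of RARB. The letters were not found in these windows of CYP26B1, DHRS3, RET, NTRK2, CRABP2, RARA and COL26A1, which is no statement on the factor's binding. Both windows are shown because the genes they precede were among the largest rises, with the DR5 in capitals. The CYP26A1 window is chr10:93073643-93073892 on the plus strand, with the element on the opposite strand between 90 and 74 bases before the start. The RARB window is chr3:25428013-25428262 on the plus strand, with the element on the same strand between 53 and 37 bases before the start.
CYP26A1: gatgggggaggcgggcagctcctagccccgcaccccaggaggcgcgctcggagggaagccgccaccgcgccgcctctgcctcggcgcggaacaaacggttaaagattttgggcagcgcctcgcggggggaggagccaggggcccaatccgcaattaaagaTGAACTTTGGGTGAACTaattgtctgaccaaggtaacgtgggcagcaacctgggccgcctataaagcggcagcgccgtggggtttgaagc
RARB: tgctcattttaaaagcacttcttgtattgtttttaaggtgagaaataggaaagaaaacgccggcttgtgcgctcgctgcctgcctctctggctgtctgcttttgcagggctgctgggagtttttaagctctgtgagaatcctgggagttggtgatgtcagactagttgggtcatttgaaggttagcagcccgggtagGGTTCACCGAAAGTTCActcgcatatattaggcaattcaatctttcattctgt

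Total RNA was sequenced after removal of ribosomal RNA, and values are RPKM, read counts scaled by gene length and by the assigned reads of the library. Assigned reads were 15367546 and 32405939 at day 7, against 11884895, 31825675 and 27957697 at day 0. The batch 1 libraries stood apart. Across genes the log2 values of libraries within batch 1 correlated at r = 0.927 and those within batch 2 at 0.953, whereas batch 1 against batches 2 and 3 gave 0.628 to 0.708. In both batch 1 libraries 582 tested genes were at 0, of which 239 lay above 1 RPKM in the other 3 control libraries, and 123 of the 582 were on chromosome 6. These 582 are not judged within batch 1, and 0 of them were called. The noradrenergic identity of the line was visible in PHOX2A, HAND2, GATA3 and DBH, each at 35.9 RPKM or more in all 5 libraries, while TH was at 0.0803 and 0.952 RPKM at day 7, against 0.130, 1.57 and 0.0110 RPKM at day 0. The sum of 5 Schwann and glial markers was 3.63 and 4.71 RPKM at day 7, against 2.31, 3.30 and 2.59 RPKM at day 0, with SOX10 and ERBB3 at 0.396 RPKM or less throughout.

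Genes were tested with limma on log2(RPKM + 0.5), in a fit over all 15 monolayer libraries so that control and knockdown groups shared 1 estimate of the spread, and called where the p adjusted by Benjamini and Hochberg's method was under 0.05. The log2 differences below are day 7 minus day 0 on that scale, which understates the change of low genes. Of 19461 genes tested, 137 rose and 49 fell, 186 in all or 0.956% (0.704% higher and 0.252% lower). Without adjustment 2733 of the 19461 had a p under 0.05 in this fit, the background for such counts of list members below. The groups did not overlap for any of the 186, as for 27.2% of all genes tested. With batch as a block, 1494 genes were called, 979 higher (5.03%) and 515 lower (2.65%), together 7.68%. All 186 were among them with the same sign. A blocked log2 difference below is the estimate of that fit. The shares called in each fit are the background for counts of called list members below. In a fit of the 5 control libraries alone 1 gene, CYP26A1, was called (adjusted p = 0.0143), and with the block that fit called 2037, 1191 higher and 846 lower, of which 1026 were among the 1494. Scaling by median ratios moved the split to 101 higher and 60 lower without the block and to 715 higher and 822 lower with it. The count was 42 without the batch 1 day 7 library, 36 without batch 2 day 7, 62 without batch 1 day 0, 79 without batch 2 day 0 and 136 without batch 3 day 0. It was 112 without the sh003 day 7 library of hairpin sh2 in batch 2, and 108 without either sh004 day 0 library. With the block it was 144 without batch 1 day 7, 112 without batch 2 day 7, 195 without batch 1 day 0 and 592 without batch 2 day 0. The 2 libraries of a batch form a pair, without replication. Over the 18879 genes judged in both pairs, 627 were at least 2-fold higher and 249 at least 2-fold lower in both, and 52 passed 2-fold in opposite directions. The 2 pairs correlated across genes (not independent replicates) at r = 0.616, and at r = 0.781 over the 9196 genes with a mean of 5 RPKM or more.

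**Figure D1:**
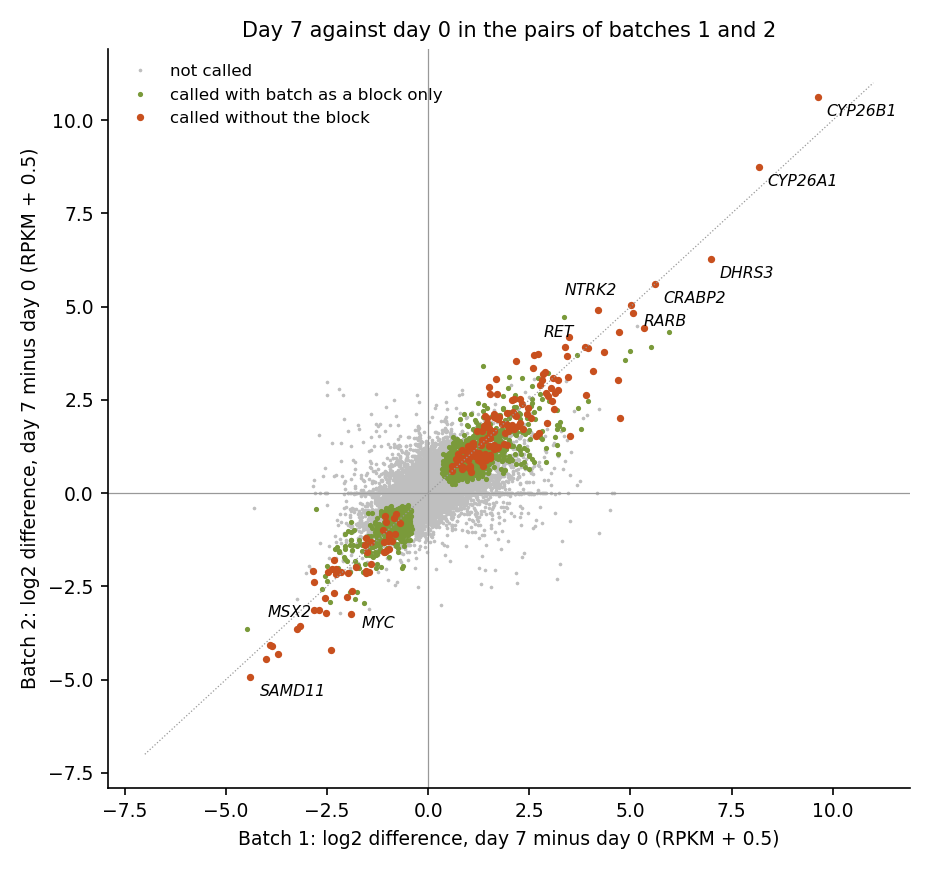
Log2 difference of day 7 minus day 0 (RPKM + 0.5) in the batch 1 pair (horizontal axis) and the batch 2 pair (vertical axis), 1 point per gene for the 18879 genes judged in both, with the 186 genes called without the block in orange, those called with the block only in green and the line of equality dotted. Every called gene lies on the same side of 0 in both pairs, from CYP26B1 at 9.64 and 10.61 to SAMD11 at -4.40 and -4.94. The paired libraries also made the calls, and of the 18879 genes 7578 lie above 0 and 5348 under 0 in both pairs.

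Genes that degrade, reduce and carry retinoids included the largest rises. Of 15 on the list, 9 were tested and 5 of these rose, among them CYP26A1, CYP26B1, DHRS3 and CRABP2, where 0.704% of all genes tested rose. The median log2 difference of the 9 was 2.21, against 0.15 over all genes tested. CYP26A1, a retinoic acid hydroxylase, stood at 221 and 225 RPKM at day 7, against 0.271, 0.0253 and 0 RPKM at day 0. CYP26B1, its relative with the same substrate, stood at 1137 and 930.4 RPKM at day 7, against 0.923, 0.0940 and 0.0214 RPKM at day 0. Both were near silent in every day 0 library and high in both day 7 libraries. The log2 differences were 8.57 (SE 0.99, adjusted p = 0.00221) for CYP26A1 and 10.40 (SE 0.72, adjusted p = 0.000109) for CYP26B1. From recovered reads, 26570 CYP26A1 reads at day 7 stood against 10 at day 0. Ranked by RPKM among 19376 protein-coding genes, CYP26B1 ranked 3 and 4 at day 7 and between 11249 and 15496 at day 0. CYP26A1 ranked 36 and 42 at day 7, and no higher than 12556 at day 0. The third member, CYP26C1, was under the level tested, with 19 reads at day 7 against 2 at day 0. The call of CYP26A1 was lost with limma voom on recovered reads without the block (adjusted p = 0.189, range over all settings 2.97e-08 to 0.189) and held in the other 24 settings.

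DHRS3 reduces retinal to retinol, away from retinoic acid, and stood at 91.6 and 50.9 RPKM at day 7, against 0.222, 0.166 and 2.06 RPKM at day 0. It rose by a log2 difference of 6.01 (SE 0.71, adjusted p = 0.00256). The batch 3 day 0 library was about an order of magnitude above the other day 0 libraries, and still far under both day 7 libraries. RDH10, which oxidises retinol to retinal in the opposite direction, was at 19.8 and 6.07 RPKM at day 7, against 1.63, 1.24 and 3.68 RPKM at day 0. It was called with the block only (blocked log2 difference 2.43, adjusted p = 0.0442, adjusted p = 0.147 without). The retinal dehydrogenase ALDH1A3, which makes retinoic acid, was at 8.996 and 4.58 RPKM at day 7, against 9.34, 5.86 and 9.34 RPKM at day 0 (log2 difference -0.29, adjusted p = 0.889), and ALDH1A1 and ALDH1A2 were at 0.146 RPKM or less in all 5 libraries. LRAT, which esterifies retinol, was under the level tested, with 105 reads at day 7 against 23 at day 0. STRA6, a retinol uptake receptor, was at 30.6 and 35.7 RPKM at day 7, against 34.9, 49.8 and 27.03 RPKM at day 0, and the groups overlapped.

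CRABP2 stood at 1256 and 1153 RPKM at day 7, against 25.4, 23.1 and 178 RPKM at day 0. The groups did not overlap, as for every gene called without the block, although the batch 3 day 0 library was well above the other day 0 libraries. It rose by a log2 difference of 4.66 (SE 0.83, adjusted p = 0.0286), and by 5.60 and 5.61 in the pairs of batches 1 and 2. It ranked 2 and 1 among protein-coding genes at day 7, and 1985, 2265 and 79 at day 0. Without either library of batch 1, or either library of batch 2, the CRABP2 call was lost (adjusted p between 0.0945 and 0.207, range over all settings 0.00334 to 0.364), and it held with the block over all libraries (adjusted p = 0.00445). Its paralogue CRABP1, which binds retinoic acid in the cytoplasm, was at 28.2 and 21.6 RPKM at day 7, against 32.3, 34.6 and 54.4 RPKM at day 0 (log2 difference -0.66, adjusted p = 0.367).

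Among the receptors RARB passed the test in both fits and RARA with the block only. RARB stood at 42.8 and 48.8 RPKM at day 7, against 0.797, 1.24 and 4.43 RPKM at day 0, with both day 7 libraries close together and about an order of magnitude over the highest day 0 library. The log2 difference was 4.37 (SE 0.46, adjusted p = 0.00142). Its exons overlap those of TOP2B on the opposite strand, which was at 44.5 and 59.6 RPKM at day 7, against 54.7, 52.7 and 76.6 RPKM at day 0, and was not called (adjusted p = 0.841). RARA was at 42.3 and 32.0 RPKM at day 7, against 26.1, 20.7 and 18.7 RPKM at day 0, a log2 difference of 0.75 that was called with the block only (adjusted p = 0.199 without and 0.0395 with it). RARA-AS1 lies on the opposite strand over RARA exons and rose (log2 difference 1.87, adjusted p = 0.0135). The strand used in counting is not given in the sources used here, so reads of overlapping genes cannot be told apart. RARG was at 18.5 and 13.8 RPKM at day 7, against 12.5, 12.2 and 18.7 RPKM at day 0. RXRA, an obligate partner of the RARs, was at 3.08 and 1.83 RPKM at day 7, against 3.85, 2.48 and 1.85 RPKM at day 0. In both the groups overlapped. RXRB was at 0 in both batch 1 libraries, and within batch 2 it was at 20.4 RPKM at day 7 against 17.7 RPKM at day 0. RXRG was at 0 throughout. Of 10 receptors and coregulators tested, 2 rose, RARB and the coactivator NCOA3 (8.80 and 10.6 RPKM at day 7, against 4.17, 4.15 and 5.24 RPKM at day 0, log2 difference 1.03, SE 0.17, adjusted p = 0.0183). The corepressor NCOR1 and the coactivators NCOA1 and NCOA2 had log2 differences between -0.05 and 0.65 and were not called.

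**Figure D2:**
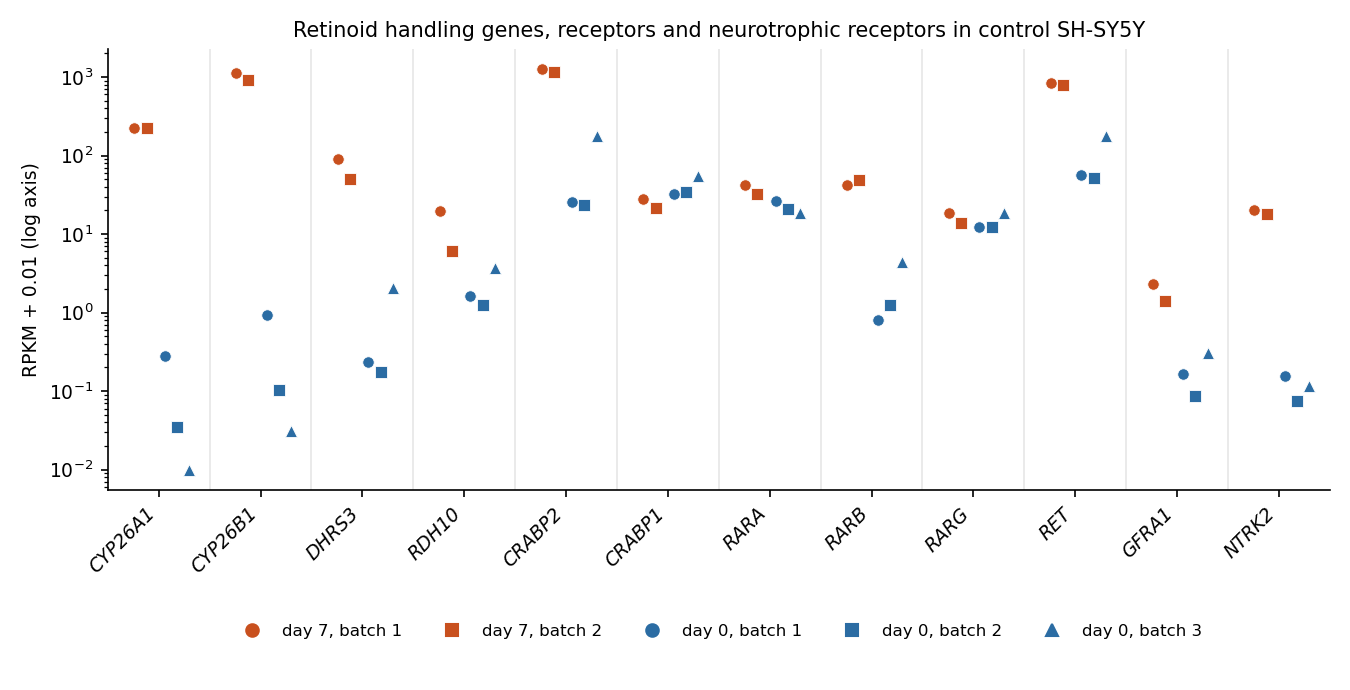
RPKM + 0.01 on a log axis for retinoid handling genes, retinoic acid receptors and neurotrophic receptors, 1 point per library with day 7 in orange left of day 0 in blue, and the batch given by the symbol. CYP26A1 lies at 221 and 225 RPKM at day 7 and at 0.271 RPKM or less at day 0, while the day 0 library of batch 3 is the highest of its group for DHRS3, CRABP2, RARB and RET.

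Receptors for nerve growth factors separated into members that rose and members that were not called. Of 16 receptors and ligands listed, 10 were tested and NTRK2, RET and GFRA1 rose (median log2 difference of the 10, 0.71), where 0.704% of all genes tested rose. RET, already expressed at day 0, stood at 845 and 793 RPKM at day 7, against 56.9, 52.1 and 176 RPKM at day 0. It rose by a log2 difference of 3.34 (SE 0.47, adjusted p = 0.00747), and by 3.88 and 3.92 within the pairs. It ranked 6 among protein-coding genes in both day 7 libraries. The batch 3 day 0 library again lay above its group, where RET ranked 82 against 646 and 794 in the other day 0 libraries. Without either day 7 library the RET call was lost (adjusted p = 0.0870 and 0.0829, range over all settings 0.000211 to 0.303), and with the block over all libraries its adjusted p was 0.000211. NTRK2 stood at 20.2 and 18.1 RPKM at day 7, against 0.144, 0.0648 and 0.105 RPKM at day 0, with the day 0 libraries all close to silent, and rose by a log2 difference of 5.02 (SE 0.32, adjusted p = 0.000106). GFRA1, the GPI-anchored co-receptor that presents GDNF to RET, was at 2.32 and 1.39 RPKM at day 7, against 0.154, 0.0767 and 0.298 RPKM at day 0, and rose by a log2 difference of 1.79 (SE 0.28, adjusted p = 0.0156). The co-receptor GFRA2 was at 0.375 and 0.398 RPKM at day 7, against 0.220, 0.0713 and 0.980 RPKM at day 0. GFRA3, the co-receptor for artemin, was at 0.734 and 1.07 RPKM at day 7, against 3.30, 4.13 and 0.263 RPKM at day 0. Neither was called, and in both the batch 3 day 0 value stood apart from the other day 0 values. NGFR, the low-affinity neurotrophin receptor, was at 0.596 and 0.550 RPKM at day 7, against 2.80, 2.53 and 2.38 RPKM at day 0. The receptor kinase ALK was at 24.4 and 28.0 RPKM at day 7, against 11.2, 15.6 and 8.37 RPKM at day 0. In both the groups did not overlap, as for 27.2% of all genes tested. ALK was higher and NGFR lower at day 7, but neither was called in either fit. BDNF was under the level tested and GDNF was at 0.0150 RPKM or less in all 5 libraries.

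Other genes with large rises came from several classes. POU2AF2, a coactivator of POU-domain transcription factors, was at 12.5 and 9.42 RPKM at day 7, against 0, 0 and 0 RPKM at day 0. Its 600 reads at day 7 against 0 of 3 libraries at day 0 make it at least 300.03-fold higher, taking 3 reads over the day 0 group as the floor. The long non-coding RNA LINC01587 was at 8.72 and 15.5 RPKM at day 7, against 0, 0.0270 and 0.0307 RPKM at day 0. Its 739 reads at day 7 against 2 at day 0 give a ratio of 554, with a 95% exact interval of 153 to 4586 that covers counting error only. Both were thus on in both day 7 libraries and off or nearly off at day 0. HIC1, a transcriptional repressor, stood at 35.6 and 20.4 RPKM at day 7, against 1.85, 0.918 and 0.573 RPKM at day 0, and rose by a log2 difference of 4.17 (SE 0.33, adjusted p = 0.000194). COL26A1, a collagen chain, stood at 13.5 and 14.7 RPKM at day 7, against 0.187, 0.598 and 0.238 RPKM at day 0, and rose by a log2 difference of 4.15 (SE 0.30, adjusted p = 0.000124). NCAM2, a neural cell adhesion molecule, stood at 11.8 and 18.01 RPKM at day 7, against 0.646, 0.943 and 0.774 RPKM at day 0, and rose by a log2 difference of 3.56 (SE 0.41, adjusted p = 0.00212). In these 3 genes every day 7 value was at 11.8 RPKM or more and every day 0 value at 1.85 RPKM or less. COLEC12, a scavenger receptor, was at 16.9 and 4.92 RPKM at day 7, against 0.178, 0.166 and 0.205 RPKM at day 0 (log2 difference 3.83, SE 0.62, adjusted p = 0.0170). The imprinted RNA H19 was at 41.7 and 17.3 RPKM at day 7, against 2.005, 1.34 and 1.22 RPKM at day 0 (log2 difference 3.78, SE 0.60, adjusted p = 0.0155). In both the batch 1 library was the higher of the day 7 group. HS3ST2, a heparan sulfate sulfotransferase, was at 25.6 and 29.4 RPKM at day 7, against 3.75, 1.79 and 0.934 RPKM at day 0 (log2 difference 3.54, SE 0.71, adjusted p = 0.0459), and its call was lost in 17 of 25 alternative settings. RNU6ATAC18P, a copy of a small nuclear RNA with near-identical copies elsewhere, had 25 reads at day 7 against 0 at day 0 and is uncertain. Its call was lost in 17 of 25 alternative settings. It lies next to DHRS3 among the tested genes, and the source of its reads was not tested.

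A further set was called with the block only, and in most of these the batch 3 day 0 library was the day 0 library nearest to the day 7 side. Of the 842 genes higher with the block only, batch 3 was the highest day 0 library in 518 (61.5%, against 34.3% of all genes tested), and of the 466 lower it was the lowest in 358 (76.8%, against 36.6%). The named genes on the higher side, by their adjusted p, were SIPA1L2, IL6ST, ABTB2, ADD3 and PTGIR. IL6ST, the shared signalling receptor of the IL-6 family, stood at 25.7 and 33.7 RPKM at day 7, against 5.26, 6.34 and 25.4 RPKM at day 0, so that the day 0 value of batch 3 was near the day 7 values. Its log2 difference was 1.57 without the block (adjusted p = 0.323) and 2.23 with it (adjusted p = 0.00107). PTGIR, the prostacyclin receptor, stood at 15.5 and 13.9 RPKM at day 7, against 0.759, 0.611 and 4.18 RPKM at day 0 (blocked log2 difference 3.88, adjusted p = 0.00291). SIPA1L2 was at 66.8 and 68.9 RPKM at day 7, against 12.9, 7.599 and 24.1 RPKM at day 0 (blocked log2 difference 2.84). ADD3, a membrane skeleton protein, was at 65.0 and 105 RPKM at day 7, against 14.4, 16.3 and 34.2 RPKM at day 0 (blocked log2 difference 2.45). ABTB2 was at 15.1 and 13.4 RPKM at day 7, against 2.11, 1.38 and 6.02 RPKM at day 0 (blocked log2 difference 2.70). In all 5 the batch 3 value was the highest of day 0. In the other direction, UNC5B, a netrin receptor, was at 52.2 and 35.1 RPKM at day 7, against 154, 132 and 90.3 RPKM at day 0 (blocked log2 difference -1.78). RORB, an orphan nuclear receptor, was at 1.38 and 0.499 RPKM at day 7, against 11.1, 5.41 and 3.81 RPKM at day 0 (blocked log2 difference -2.69). PRRT4, GSE1 and ASTN2, a protein of neuronal migration, had blocked log2 differences of -1.86, -1.30 and -1.73.

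Among the genes that fell were transcription factors, a growth regulator and signalling proteins. The named ones, here and in the next paragraph, were chosen with groups that did not overlap, so their lack of overlap is no separate result. SAMD11, a protein with a sterile alpha motif, had the largest fall, at 3.005 and 1.15 RPKM at day 7, against 73.6, 50.1 and 31.5 RPKM at day 0 (log2 difference -4.36, SE 0.38, adjusted p = 0.000347). The homeobox factor MSX2, a target of BMP signals, stood at 2.38 and 1.18 RPKM at day 7, against 16.2, 15.1 and 20.3 RPKM at day 0, and fell (log2 difference -2.997, SE 0.30, adjusted p = 0.00111). In both genes all day 7 values were under all day 0 values by a wide margin. SIX3, a homeobox factor of forebrain and eye, was at 1.15 and 0.929 RPKM at day 7, against 15.2, 17.2 and 4.84 RPKM at day 0 (log2 difference -2.89, SE 0.57, adjusted p = 0.0433). PRRX2, a mesenchymal homeobox factor, was at 1.85 and 0.250 RPKM at day 7, against 8.19, 4.13 and 13.95 RPKM at day 0 (log2 difference -2.65). In SIX3 and PRRX2 both day 7 values lay under every day 0 value. The corepressor TLE1 stood at 1.98 and 2.09 RPKM at day 7, against 12.02, 16.005 and 10.4 RPKM at day 0, and fell (log2 difference -2.37, SE 0.30, adjusted p = 0.00372). MYC, the growth and proliferation factor, stood at 3.76 and 1.36 RPKM at day 7, against 15.5, 16.95 and 9.96 RPKM at day 0, and fell (log2 difference -2.34, SE 0.47, adjusted p = 0.0459). The MYC groups did not overlap, but its call was lost in 15 of 25 alternative settings, that of SIX3 in 15 and that of PRRX2 in 14.

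Signalling proteins among the falls included ADCYAP1R1, the receptor of the neuropeptide PACAP, at 0.477 and 0.972 RPKM at day 7, against 14.1, 24.01 and 4.46 RPKM at day 0 (log2 difference -3.34, adjusted p = 0.0242). Its day 0 values were spread widely, with batch 3 the lowest. DUSP2, a phosphatase of MAP kinases, stood at 1.95 and 0.863 RPKM at day 7, against 16.8, 11.4 and 10.7 RPKM at day 0, and fell (log2 difference -2.85, SE 0.29, adjusted p = 0.00114). DOK4, an adaptor of receptor tyrosine kinases that include RET, stood at 21.1 and 19.4 RPKM at day 7, against 139, 175 and 69.5 RPKM at day 0, and fell (log2 difference -2.53, SE 0.34, adjusted p = 0.00522). GNG11, a G protein gamma subunit, was at 15.1 and 26.3 RPKM at day 7, against 111, 113 and 87.7 RPKM at day 0 (log2 difference -2.34). The tetraspanin CD9 was at 3.84 and 2.94 RPKM at day 7, against 24.8, 23.7 and 28.7 RPKM at day 0 (log2 difference -2.76). The metalloprotease ADAM12 was at 3.37 and 1.99 RPKM at day 7, against 15.1, 16.7 and 18.4 RPKM at day 0 (log2 difference -2.47). The imprinted, retrotransposon-derived PEG10 was at 21.1 and 30.3 RPKM at day 7, against 119, 132 and 136 RPKM at day 0 (log2 difference -2.33). For CD9, ADAM12 and PEG10 the 3 day 0 values lay close together, far over both day 7 values.

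**Figure D3:**
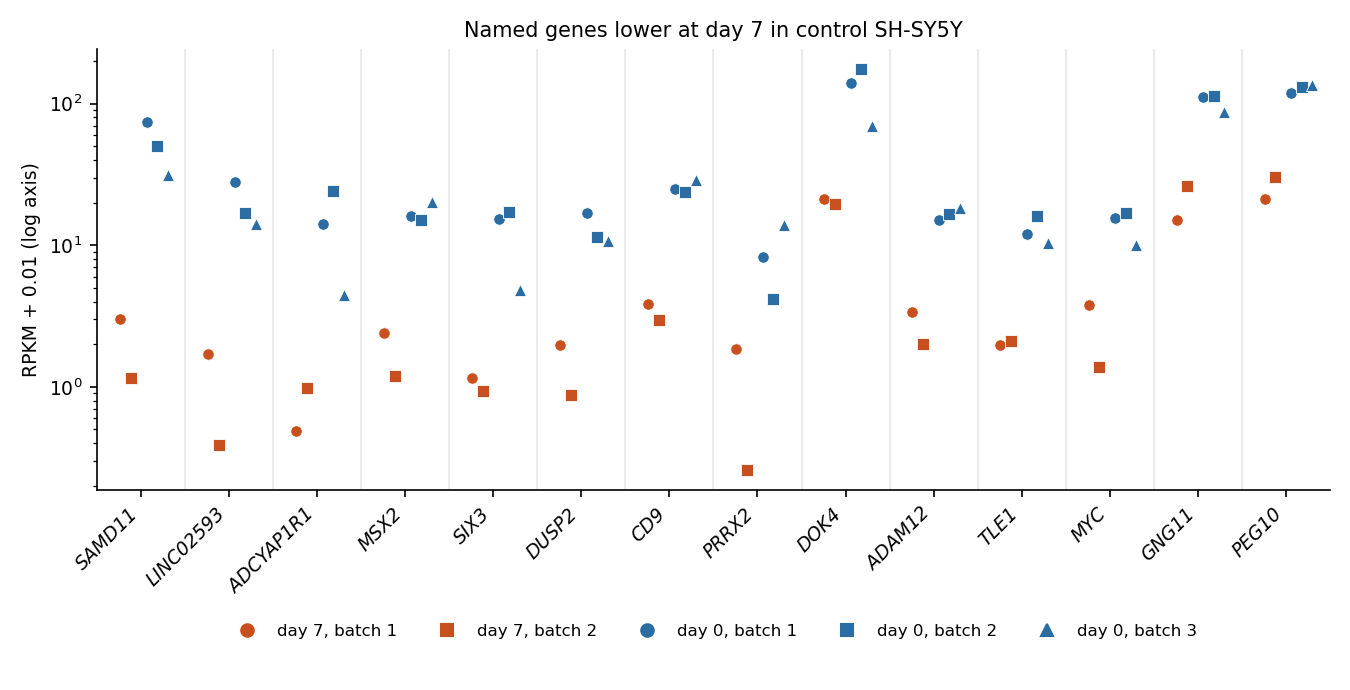
RPKM + 0.01 on a log axis for 14 named genes that fell, 1 point per library with day 7 in orange left of day 0 in blue, and the batch given by the symbol. No day 7 point reaches a day 0 point of the same gene, which the choice of these genes required. SAMD11 lies at 3.00 and 1.15 RPKM at day 7 against 31.5 to 73.6 RPKM at day 0.

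Genes of the cell cycle were lower as a group. Of 31 tested, 30 had a negative log2 difference (median -0.99, against 0.15 over all genes) and 30 were lower in both pairs. With limma 0 were called without the block (21 at an unadjusted p under 0.05), and 10 fell with it, where 2.65% of all genes tested did. All 6 subunits of the replicative helicase were among the 10, with MCM7 at 115 and 108 RPKM at day 7, against 289, 235 and 162 RPKM at day 0 (blocked log2 difference -1.24, SE 0.20, adjusted p = 0.00915). MCM2 was at 41.4 and 35.9 RPKM at day 7, against 88.4, 76.3 and 46.4 RPKM at day 0 (blocked log2 -1.11). The others were the replication licensing factors CDC6 (blocked log2 -0.82) and CDT1 (blocked log2 -1.02) and the ribonucleotide reductase subunits RRM1 (blocked log2 -0.83) and RRM2 (blocked log2 -1.25). Mitotic genes were lower in both pairs and were not called in either fit. The kinase PLK1 was at 8.63 and 11.6 RPKM at day 7, against 44.5, 41.8 and 26.9 RPKM at day 0 (blocked log2 difference -2.07, adjusted p = 0.0806). The proliferation marker MKI67 was at 27.1 and 32.3 RPKM at day 7, against 77.3, 67.6 and 47.2 RPKM at day 0. Cyclin B1 (CCNB1) was at 17.96 and 31.9 RPKM at day 7, against 69.7, 77.8 and 60.5 RPKM at day 0. In all 3 genes both day 7 values lay under every day 0 value, where the groups did not overlap for 27.2% of all genes tested. Cyclin E1 (CCNE1), which acts at entry to S phase, was at 10.9 and 9.38 RPKM at day 7, against 8.81, 9.95 and 10.3 RPKM at day 0. The D cyclin CCND1 was at 115 and 172 RPKM at day 7, against 375, 325 and 265 RPKM at day 0 (blocked log2 difference -1.49, adjusted p = 0.0556). The CDK inhibitor CDKN1A was at 52.4 and 88.4 RPKM at day 7, against 25.1, 63.9 and 59.4 RPKM at day 0. CDKN1B, another inhibitor, was at 35.4 and 47.8 RPKM at day 7, against 43.0, 36.4 and 49.5 RPKM at day 0. In both the groups overlapped, and the inhibitor CDKN2C fell with the block (blocked log2 -1.05).

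Nucleolar genes lay on the same side. All 9 ribosome biogenesis factors tested had negative log2 differences, also in both pairs. Their median was -0.52, near the -0.49 of the housekeeping genes below, and -0.62 with the block, against -0.23 for those. NOP58, a core protein of box C/D small nucleolar particles, stood at 21.0 and 22.9 RPKM at day 7, against 38.0, 36.5 and 35.5 RPKM at day 0, and fell (log2 difference -0.73, SE 0.13, adjusted p = 0.0276). NCL, NPM1, FBL and NOP56 fell with the block (blocked log2 differences -0.62, -0.67, -0.98 and -0.62). MYCN, which is not amplified in this line, was at 2.40 and 1.41 RPKM at day 7, against 2.94, 2.33 and 3.29 RPKM at day 0. Reference genes were lower as well: of 15 housekeeping genes, 14 had a negative log2 difference (median -0.49, and -0.23 with the block), and PPIA and SDHA were among 3 that fell with the block. The part of this lower level in the values of cell cycle and nucleolar genes was not tested.

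**Figure D4:**
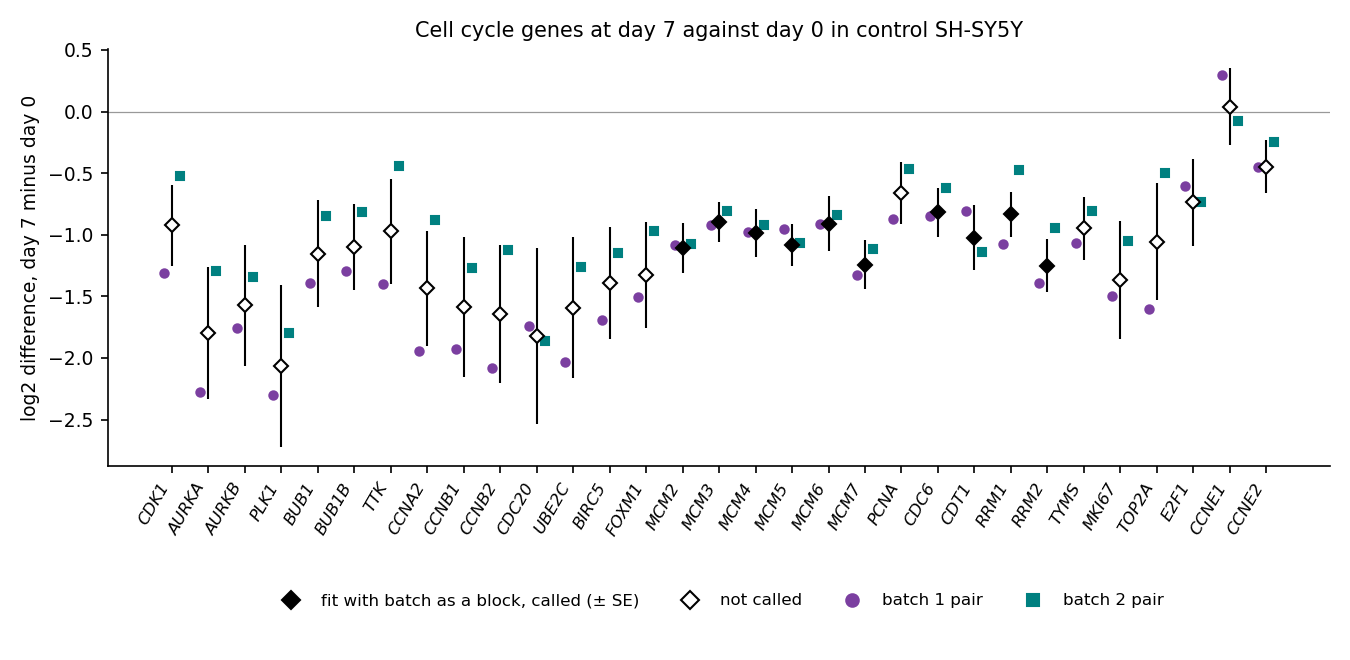
Log2 difference of day 7 minus day 0 for the 31 cell cycle genes, with the estimate and SE of the fit with batch as a block (diamonds, filled where called), the batch 1 pair (circles) and the batch 2 pair (squares). The 6 MCM genes lie between -0.89 and -1.24, and the block estimates of all genes but CCNE1 lie under 0.

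Noradrenergic identity genes were mostly lower and rarely called. Of 13 core transcription factors tested, 11 had negative log2 differences (median -1.04). SIX3 fell, and GATA2 and GATA3 fell with the block. GATA3 was at 44.0 and 35.9 RPKM at day 7, against 156, 141 and 73.4 RPKM at day 0 (blocked log2 difference -1.87, adjusted p = 0.0214). GATA2 was at 56.7 and 62.5 RPKM at day 7, against 228, 219.9 and 72.4 RPKM at day 0 (blocked log2 -1.74). In both, the batch 3 day 0 library lay closest to day 7. HAND1, of sympathetic development, was at 13.2 and 16.3 RPKM at day 7, against 75.3, 86.9 and 134 RPKM at day 0. It was lower at day 7 in both pairs but not called (adjusted p = 0.152). PHOX2A was at 487 and 389 RPKM at day 7, against 363, 293 and 279 RPKM at day 0, higher at day 7 in both pairs and not called. Catecholamine genes followed no single direction. The decarboxylase DDC was at 6.70 and 16.8 RPKM at day 7, against 39.9, 75.6 and 59.6 RPKM at day 0. Dopamine beta-hydroxylase (DBH) was at 247 and 167 RPKM at day 7, against 492, 555 and 193 RPKM at day 0. The noradrenaline transporter SLC6A2 was at 26.7 and 29.7 RPKM at day 7, against 101, 94.0 and 25.02 RPKM at day 0. None of the 3 was called, and for DBH and SLC6A2 the batch 3 day 0 value lay in or near the day 7 range. The neuropeptide GAL was at 694 and 589 RPKM at day 7, against 146, 163 and 101 RPKM at day 0, and rose with the block (blocked log2 difference 2.20, adjusted p = 0.0261). VIP, another neuropeptide, was at 7.39 and 23.7 RPKM at day 7, against 0.266, 0.417 and 23.6 RPKM at day 0, and rose with the block (blocked log2 4.29), as did MAOB (blocked log2 1.90) and SCG5 (blocked log2 1.41). Galanin was thus higher in both day 7 libraries, whereas the VIP level at day 7 in batch 2 was close to that at day 0 in batch 3. NPY was at 18.7 and 27.1 RPKM at day 7, against 121, 68.7 and 167 RPKM at day 0, with an adjusted p of 0.245.

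None of the listed genes of neurites and synapses was called, where the share called was low over all genes tested. It was 0.956% without the block and 7.68% with it, so 0 calls in a short list is near the background. Without the block 2733 of 19461 genes had an unadjusted limma p under 0.05. The same count with the block was not made, so unadjusted counts of list members with the block, here and below, have no background. With limma 0 of 18 neurite and cytoskeletal genes were called in either fit (3 at an unadjusted p under 0.05 without the block, 4 with it). Their median log2 difference was 0.31 without the block and 0.02 with it, and -0.09 with the block and median-ratio scaling. STMN2, a regulator of microtubules, was at 129 and 277 RPKM at day 7, against 172, 217 and 203 RPKM at day 0. GAP43, a growth cone protein, was at 37.2 and 62.2 RPKM at day 7, against 35.6, 55.5 and 25.5 RPKM at day 0. MAP2, of dendritic microtubules, was at 9.38 and 15.9 RPKM at day 7, against 10.6, 12.7 and 7.79 RPKM at day 0. In each of the 3 the groups overlapped. DPYSL3, a mediator of growth cone collapse, was at 278 and 324 RPKM at day 7, against 132, 71.1 and 208 RPKM at day 0, and did not pass (blocked log2 difference 1.41, adjusted p = 0.0533). Of 21 synaptic genes 0 were called in either fit (5 and 6 at an unadjusted p under 0.05), with a median of 0.42, against 0.15 over all genes. SNAP25, a vesicle fusion protein, was at 25.7 and 56.0 RPKM at day 7, against 11.1, 22.2 and 8.15 RPKM at day 0 (blocked log2 difference 1.51, adjusted p = 0.110). SYN1, of synaptic vesicles, was at 8.05 and 12.1 RPKM at day 7, against 5.75, 10.6 and 0.949 RPKM at day 0, with its day 0 values far apart. Among 15 ion channels 0 were called without the block (5 at an unadjusted p under 0.05), SCN2A (blocked log2 1.32) and SCN8A (blocked log2 0.76) were among 3 that rose with it, and KCNH2 fell (blocked log2 -1.002). Of 10 cholinergic genes 0 were called in either fit (2 and 1 at an unadjusted p under 0.05), and acetylcholinesterase (ACHE) was at 8.84 and 10.7 RPKM at day 7, against 2.30, 4.54 and 2.47 RPKM at day 0 (adjusted p = 0.173, and 0.0909 with the block).

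HOX genes of the D cluster and their TALE partners held the calls of that family. Of 45 listed, 20 were tested. HOXD8 stood at 18.2 and 24.4 RPKM at day 7, against 5.38, 5.63 and 5.13 RPKM at day 0, and rose by a log2 difference of 1.88 (SE 0.18, adjusted p = 0.00104), while the cofactor MEIS2 stood at 36.9 and 36.1 RPKM at day 7, against 20.5, 21.9 and 20.4 RPKM at day 0, and rose by a log2 difference of 0.79 (SE 0.13, adjusted p = 0.0155). With the block HOXD1 (blocked log2 1.18), HOXD9 (blocked log2 1.14) and MEIS3 (blocked log2 0.75) rose too. HOXD1 overlaps exons of HAGLR on the opposite strand, which was also called with the block. The anterior HOXA and HOXB genes, textbook retinoic acid targets in embryonic cells, were silent or nearly so. HOXA2, HOXB1 and HOXB2 had 0 reads in both day 7 libraries, and HOXB2 had 1 read at day 0. HOXA5 had 20 reads at day 7 against 0 at day 0, at least 10.001-fold higher over the floor of 3 reads for the day 0 group.

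BMP pathway genes were lower in part. Of 16 tested, ID2, SMAD7, SMAD9 and MSX2 fell and none rose (median log2 difference -1.16, against 0.15 over all genes). Over all genes tested 0.252% fell and 0.704% rose. ID2, an inhibitor of differentiation factors, was at 24.97 and 12.4 RPKM at day 7, against 70.2, 55.2 and 81.6 RPKM at day 0 (log2 difference -1.92, SE 0.32, adjusted p = 0.0202). SMAD7, an inhibitory SMAD, was at 6.19 and 3.29 RPKM at day 7, against 18.7, 15.6 and 12.3 RPKM at day 0 (log2 difference -1.65, SE 0.26, adjusted p = 0.0143), and SMAD9, a BMP transducer, at 26.9 and 23.0 RPKM at day 7, against 80.9, 61.3 and 77.1 RPKM at day 0 (log2 difference -1.53, SE 0.22, adjusted p = 0.00747). In all 3 the highest day 7 value lay under the lowest day 0 value, as for every fall called without the block. ID1 was at 89.9 and 26.6 RPKM at day 7, against 146, 94.0 and 180.1 RPKM at day 0. ID3 was at 118 and 62.6 RPKM at day 7, against 103, 85.9 and 69.0 RPKM at day 0. Neither was called, and only the ID3 groups overlapped. In the Notch list of 12 tested, the ligand JAG1 rose (9.31 and 8.75 RPKM at day 7, against 2.42, 1.75 and 3.04 RPKM at day 0, log2 difference 1.74, SE 0.31, adjusted p = 0.0265) and the Fringe glycosyltransferase LFNG fell (2.05 and 1.24 RPKM at day 7, against 6.31, 5.99 and 14.2 RPKM at day 0, log2 difference -2.04, SE 0.37, adjusted p = 0.0303). HES4 fell with the block (blocked log2 -1.07). Of 23 Wnt genes 0 were called without the block (5 at an unadjusted p under 0.05), and with it FZD7 and DKK3 rose (blocked log2 differences 1.29 and 1.02) and DKK1 and TCF7 fell (-1.64 and -0.78). With the block 5.03% of all genes tested rose and 2.65% fell. DKK1, a secreted Wnt antagonist, was at 68.4 and 111 RPKM at day 7, against 243, 218 and 221 RPKM at day 0.

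Of the feedback inhibitors of RAS and ERK 4 rose with the block, while DUSP2 fell in both fits. SPRY1 was at 19.7 and 7.69 RPKM at day 7, against 1.74, 1.26 and 3.51 RPKM at day 0 (blocked log2 difference 2.60, adjusted p = 0.0365). SPRED3 was at 11.9 and 4.80 RPKM at day 7, against 1.70, 2.10 and 2.43 RPKM at day 0 (blocked log2 1.70). DUSP6 was at 26.7 and 33.8 RPKM at day 7, against 12.6, 7.32 and 14.9 RPKM at day 0 (blocked log2 1.40). SPRED1 had a blocked log2 difference of 0.71. These were 5 of 22 genes tested, and none of the immediate early transcription factors was called in either fit. Of 30 axon guidance genes, NTN4, a netrin, rose (9.26 and 4.75 RPKM at day 7, against 0.606, 0.309 and 0.713 RPKM at day 0, log2 difference 2.80, SE 0.30, adjusted p = 0.00152), and so did the ephrin EFNB2 (50.1 and 40.7 RPKM at day 7, against 13.4, 16.05 and 12.9 RPKM at day 0, log2 difference 1.65, SE 0.28, adjusted p = 0.0242). With the block SLIT2 (blocked log2 2.18) and EPHB3 (blocked log2 1.32) also rose, and SEMA3F (blocked log2 -0.94) fell with UNC5B. Over all genes tested 0.704% rose without the block, and 5.03% rose and 2.65% fell with it. Of 29 matrix and adhesion genes the gelatinase MMP2 fell (41.6 and 40.8 RPKM at day 7, against 82.8, 99.9 and 136 RPKM at day 0, log2 difference -1.33, SE 0.26, adjusted p = 0.0390) and the protease inhibitor TIMP3 rose with the block (18.9 and 32.4 RPKM at day 7, against 1.94, 5.47 and 7.79 RPKM at day 0, blocked log2 difference 3.36). The collagens and integrins on the list were not called in either fit, and COL3A1, SPARC and ITGA1 were highest in the day 0 library of batch 3. Of 14 mesenchymal genes 0 were called without the block (5 at an unadjusted p under 0.05). With it IL6ST, given above, rose and TWIST1 fell (120.5 and 45.5 RPKM at day 7, against 171, 90.1 and 71.0 RPKM at day 0, blocked log2 difference -0.81). Vimentin (VIM) was at 50.6 and 30.7 RPKM at day 7, against 108, 75.0 and 139.7 RPKM at day 0, and did not pass.

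Most sterol genes had small positive log2 differences. INSIG1, which holds the sterol regulators in the endoplasmic reticulum, stood at 19.5 and 19.2 RPKM at day 7, against 4.29, 5.09 and 5.56 RPKM at day 0, and rose by a log2 difference of 1.86 (SE 0.35, adjusted p = 0.0347). With the block the synthesis enzymes DHCR7 (blocked log2 1.05) and FDFT1 (blocked log2 0.59) rose, and 15 of 16 sterol genes tested had a positive log2 difference (median 0.49). PSAT1, of serine synthesis, was at 9.52 and 14.5 RPKM at day 7, against 28.6, 33.99 and 38.1 RPKM at day 0 (log2 difference -1.47, SE 0.25, adjusted p = 0.0227), and SHMT2, which takes serine into the folate cycle of mitochondria, at 11.2 and 5.91 RPKM at day 7, against 24.4, 18.5 and 19.3 RPKM at day 0 (log2 difference -1.28, SE 0.25, adjusted p = 0.0376). Both fell, with day 7 values under every day 0 value, as for every fall called without the block. PHGDH (blocked log2 -0.93) and ATF4 (blocked log2 -0.68) fell with the block, while ATF3 rose with it (blocked log2 1.29). These belong to a list of amino acid stress genes, of which 15 were tested, 2 fell and 4 had a positive log2 difference (median -0.38, against -0.49 for the housekeeping genes). Glycolytic genes ENO1 (255 and 193 RPKM at day 7, against 363, 422 and 353 RPKM at day 0, blocked log2 difference -0.85), LDHA (blocked log2 -1.03) and SLC2A1 (blocked log2 -0.84) fell with the block, and so did EGLN3 (blocked log2 -1.40), a hypoxia-induced gene. Of 17 hypoxia and glycolysis genes tested 0 were called without the block (6 at an unadjusted p under 0.05) and these 4 with it, and the median blocked log2 difference was -0.23, as for the housekeeping genes (-0.23). Of 10 interferon-stimulated genes tested IRF9, a component of the interferon transcription complex, rose (2.80 and 3.66 RPKM at day 7, against 0.821, 1.04 and 1.26 RPKM at day 0, log2 difference 1.27, SE 0.25, adjusted p = 0.0407), with STAT2 (blocked log2 0.92) and IRF7 (blocked log2 0.65) added by the block. Of 10 class I presentation genes 7 were at 0 in both batch 1 libraries and are not judged there, and none of the 10 was called in either fit. Of 16 apoptosis regulators 0 were called in either fit (0 and 2 at an unadjusted p under 0.05), where 0.956% and 7.68% of all genes were. BCL2 was at 6.28 and 5.92 RPKM at day 7, against 4.65, 6.24 and 16.9 RPKM at day 0.

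**Figure D5:**
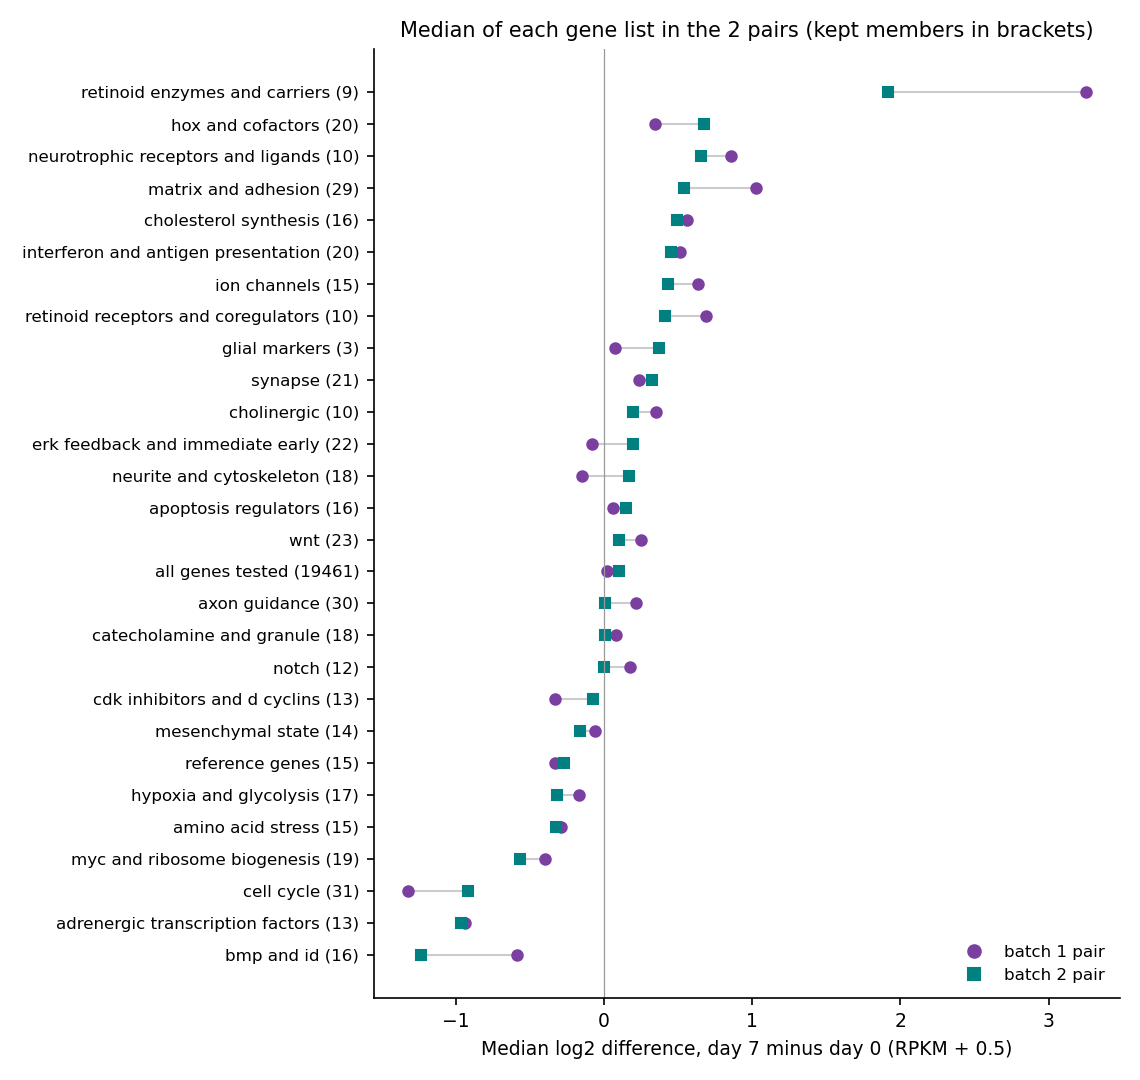
Median log2 difference of day 7 minus day 0 for each gene list and for all genes tested, in the batch 1 pair (circles) and the batch 2 pair (squares), with the number of tested members in brackets, of which genes at 0 in both batch 1 libraries are left out of the batch 1 median. Retinoid enzymes and carriers lie highest (3.25 and 1.92), cell cycle, noradrenergic transcription factor and BMP genes lowest, and all genes at 0.02 and 0.10.

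Some called genes were neighbours on their chromosome. Of the 181 called genes placed in the reference annotation, 38 fell into 16 runs in which neighbouring tested genes were both called, and within each run all members moved in the same direction. No background for such runs over all genes tested was computed. Some runs hold overlapping genes, whose reads cannot be told apart. The genes in this paragraph were chosen by position after their values were seen. The largest run, 5 genes on chromosome 1, fell together, with SAMD11, LINC02593 (1.69 and 0.379 RPKM at day 7, against 28.0, 16.97 and 14.1 RPKM at day 0, log2 difference -3.80) and NOC2L (26.0 and 22.7 RPKM at day 7, against 51.6, 65.2 and 40.5 RPKM at day 0, log2 difference -1.07) and 2 genes without a symbol. SAMD11 and NOC2L overlap in their exons on opposite strands. On chromosome 11, COLCA1 (3.63 and 3.41 RPKM at day 7, against 0, 0.0598 and 0.0124 RPKM at day 0) and POU2AF3 (4.11 and 3.002 RPKM at day 7, against 0, 0.0155 and 0 RPKM at day 0) rose beside POU2AF2. EXOC6B, the neighbour of CYP26B1 and a gene of vesicle tethering, was at 8.25 and 9.10 RPKM at day 7, against 2.56, 3.48 and 3.23 RPKM at day 0, and rose by a log2 difference of 1.36 (SE 0.15, adjusted p = 0.00165). SMG6, a nuclease of RNA decay whose exons overlap HIC1 on the opposite strand, was at 18.6 and 15.5 RPKM at day 7, against 8.97, 9.47 and 8.80 RPKM at day 0 (log2 difference 0.87). Genes on both sides of CRABP2, and those next to DHRS3, which include the uncertain RNU6ATAC18P given above, also rose. Long non-coding RNAs made 36 of the 186 calls, 28 higher and 8 lower, of 2153 tested. Protein-coding genes gave 101 higher and 40 lower of 12347.

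Whether the response differed in cells with shRNAs against CASC15-003 (sh003, 6 libraries) or CASC15-004 (sh004, 4 libraries) was tested as an interaction in the same fit. Both groups mix libraries of different hairpins, which the fit took as replicates of a condition. With limma, 0 of 19461 genes differed for sh003 and 0 for sh004, with 284 at an unadjusted p under 0.05 in each. With the block 0 differed for sh003 (731 at an unadjusted p under 0.05) and 2 for sh004 (849), VCAM1 and OR2I1P. Both were under 0.1 RPKM at day 7 in control cells, and at 0 in both batch 1 control libraries. The 6 genes CYP26A1, CYP26B1, DHRS3, RARB, RET and NTRK2 had differences of response, control minus sh003, between -1.50 and -0.05, and control minus sh004, between -0.07 and 1.96. The largest SE among these was 1.46, for CYP26A1 against sh004, and a p that misses the threshold does not show that the responses were alike.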

How the data were processed

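RNA of SH-SY5Y cells was sequenced from stranded total RNA libraries after ribosomal RNA removal, per the labels' protocols. The authors deposited 1 table of RPKM values per gene, made with TopHat and featureCounts of the Subread package on hg19, per the submitters' processing notes. Versions and the strand used in counting are not given in the sources used here, so overlapping and antisense genes cannot be told apart. Whole reads were recovered from the RPKM steps and gene lengths, and gave totals of 11884895 to 37938767 reads per library over the 15 monolayer libraries. Their number limits the precision, and intervals and floors cover counting error only.

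Of 63677 gene IDs, 52181 matched a symbol, 345 were found only in another reference table and 11151 were not matched, and 1 listed symbol was not matched. Genes at 1 RPKM or more in at least 2 libraries were tested with limma 3.58.1 in R 4.3.3 on log2(RPKM + 0.5), and p-values were adjusted by the Benjamini-Hochberg method over all genes tested. The scripts were first tested on simulated data. The titles number the batches, so libraries of the same batch are paired by label. Deviations of same-batch control and sh003 libraries from their group means correlated at 0.716 to 0.942. Libraries of different batches were not set beside these, so the values do not test the pairing. The fit without batch was set as the main one and the fit with batch as a replicate block as its alternative. Other alternatives were the pseudocount, the filter, median-ratio scaling, limma voom on recovered reads and leaving out libraries. Members and lists were chosen with earlier results of these data known. Named genes were the 6 markers, up to 15 genes per direction with the largest change among called genes with a symbol, a mean of 2 RPKM or more in the higher group, groups without overlap and the same sign in both pairs, called list members, and up to 5 per direction called with the block only. Some genes that meet this rule are not reported here. Sequences came from RefSeq tables on GRCh38.p14, and gene order from annotation release 29 on a later build than that of the files, so gene coordinates are not given from it. Tables and figures used Python 3.11.15, pandas 2.3.3 and matplotlib 3.10.9.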

Additional observations from a re-analysis of the deposited data

Results flagged for a closer look

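The response of 2 genes to 7 days of retinoic acid differed between control and sh004 cells, by the interaction term of the limma fit with batch as a block, and in neither was the difference called without the block or with voom. VCAM1, a cell adhesion receptor, had a difference of -4.08 on the log2 scale, control minus sh004, with 0 and 0.0816 RPKM at day 7 in control cells, against 0, 0.0208 and 1.16 RPKM at day 0 (blocked log2 difference 0.06), while sh004 cells had 10.6 and 8.02 RPKM at day 7, against 0.101 and 0.00456 RPKM at day 0. OR2I1P, annotated as protein-coding, had a difference of -7.23, with 0 and 0.0651 RPKM at day 7 in control cells, against 0, 0 and 4.79 RPKM at day 0 (blocked log2 difference 0.0062), while sh004 cells had 69.2 and 105.6 RPKM at day 7, against 0.151 and 0 RPKM at day 0. The day 7 values of sh004 cells lay above every control value in both genes. The 2 sh004 values of each day come from different hairpins, which the fit took as replicates. The 1.16 and 4.79 RPKM are those of the batch 3 control library, and the sh004 libraries at both days were of batch 2. Both genes were at 0 in both batch 1 control libraries and are not judged there, although these zeros entered the fit.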

How the results depend on the processing

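The count of 186 called genes stayed within 1.5 times under pseudocounts of 0.1 and 1, the stricter filter, median-ratio scaling, voom and the removal of genes at 0 in both batch 1 control libraries. It became 1494 with the replicate block, 303 without a filter (166 shared), 93 without both sh003 libraries whose culture tag goes against the title, and 1 in the 5 control libraries alone (2037 with the replicate block as well); leaving out each library in turn gave 36 to 269. With the replicate block, that range was 112 to 2702, highest without either sh004 day 7 library, and the count was 936 without the sh003 day 7 library of batch 1 and 923 without the sh003 day 0 library of batch 2. For the difference from sh003 cells, 18 genes were called without a filter, and leaving out libraries gave 0 to 5 with the block. For the difference from sh004 cells, 2 were called with the replicate block, 19 without a filter, 0 with voom and the block, 0 to 1 on leaving out libraries and 2 to 8 with the block as well. The cause of these shifts was not tested. None of the 41 named genes recomputed under these settings changed sign. Their groups did not overlap, for most as a condition of the choice, so few settings could have reversed a sign. The block ended none of the 186 calls. Other list members were not recomputed. The list medians of catecholamine, apoptosis, interferon, axon guidance, neurite, Notch, ERK feedback and glial genes lay on either side of 0 between settings. With 2 day 7 libraries, 1 of 15367546 reads, genes under 1 RPKM are poorly resolved.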

Other observations

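Genes outside the lists were also called, and those named here were chosen after their values were seen. Several code for membrane proteins and receptors. DLG2, a scaffold of the postsynaptic density, stood at 8.51 and 9.06 RPKM at day 7, against 0.471, 0.668 and 0.709 RPKM at day 0 and rose (log2 difference 3.06, SE 0.23, adjusted p = 0.000124). RAMP1, the partner that makes the receptor of the peptide CGRP, stood at 235 and 146 RPKM at day 7, against 42.8, 33.3 and 23.2 RPKM at day 0 and rose (log2 difference 2.51, SE 0.35, adjusted p = 0.00732). The cannabinoid receptor CNR1 was at 0.932 and 3.82 RPKM at day 7, against 0.00861, 0.0965 and 0.0220 RPKM at day 0 (log2 difference 2.20, SE 0.43, adjusted p = 0.0409), and LIFR, which pairs with the product of IL6ST, at 15.3 and 10.1 RPKM at day 7, against 3.04, 1.97 and 4.51 RPKM at day 0 (log2 difference 1.87, SE 0.37, adjusted p = 0.0433). In each of these the groups did not overlap, as for every gene called without the block. Day 0 was low in all 3 batches except for RAMP1, which was already expressed.

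Enzymes and kinases formed another set. The secreted lipid enzyme ENPP2, which makes lysophosphatidic acid, stood at 3.31 and 4.55 RPKM at day 7, against 0.0125, 0.0327 and 0.0744 RPKM at day 0 and rose (log2 difference 3.02, SE 0.43, adjusted p = 0.00747). GRK5, a kinase of G protein-coupled receptors, stood at 34.4 and 25.1 RPKM at day 7, against 3.54, 4.84 and 2.73 RPKM at day 0 and rose (log2 difference 2.86, SE 0.33, adjusted p = 0.00235). The fatty acid desaturase SCD stood at 113 and 123 RPKM at day 7, against 28.5, 38.3 and 27.3 RPKM at day 0 and rose (log2 difference 1.91, SE 0.30, adjusted p = 0.0135). Among the genes that fell, the SRC-family kinase LYN stood at 14.3 and 17.2 RPKM at day 7, against 41.8, 52.2 and 53.2 RPKM at day 0 (log2 difference -1.61, SE 0.20, adjusted p = 0.00349) and the proteoglycan GPC3 at 3.36 and 2.09 RPKM at day 7, against 10.6, 11.05 and 17.6 RPKM at day 0 (log2 difference -2.07, SE 0.39, adjusted p = 0.0361). For LYN and GPC3 the highest day 7 value was under the lowest day 0 value, as for every fall called without the block.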
